A study of Mus musculus with 2 samples.

Results

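The nuclear genes that encode subunits of the respiratory chain and of ATP synthase were followed through 2 droplet-based single-cell RNA libraries of mouse liver. Members were the features whose symbols begin with Ndufa, Ndufb, Ndufc, Ndufs or Ndufv and a digit, are Sdha, Sdhb, Sdhc or Sdhd, or begin with Uqcr, with Cox4 to Cox8 and a letter, or with Atp5. This rule took 85 of the 32285 genes in the count tables. By the complex they belong to, 36 are in complex I, 4 in complex II, 8 in complex III, 20 in complex IV and 17 in complex V, with Ndufa4 and Ndufa4l2 placed in complex IV. The rule also took Cox7a2l, which joins complexes into larger assemblies, and Ndufb1-ps, whose symbol marks a pseudogene.

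The respiratory chain passes electrons from NADH (complex I) and succinate (complex II) through complex III to oxygen at complex IV, and ATP synthase, complex V, spends the proton gradient this creates. Most subunits are encoded in the nucleus, translated in the cytosol and imported, whereas a small core of complexes I, III, IV and V is encoded by mitochondrial DNA. Complex II is wholly nuclear-encoded. The liver is rich in mitochondria, and hepatocytes use them to oxidize fatty acids and to run parts of the urea cycle.

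The WT library was made from the liver of control mice (genotype label CTRL) and the N-LKO library from the liver and tumor of mice with a liver-specific knockout of NgBR. NgBR, encoded by Nus1, is a subunit of cis-prenyltransferase, which makes dolichol. In N-LKO mice, Cre driven by the albumin promoter removes the loxP-flanked exon 1 of Nus1, and the paper calls the deletion hepatocyte-specific. Recombination in other liver cells, cholangiocytes among them, was not checked here. The strain was C57BL6 in both groups, the diet had been given for 16 weeks after a period on chow, and the diet was taken to be WD, a Western-type diet rich in fat and cholesterol, from the treatment label, although the sample titles say HFD. Mice were male, hepatocytes and nonparenchymal cells were mixed in equal parts, and the N-LKO mix also received a smaller part of tumor cells. The number of mice behind each library and the loxP genotype of the control mice were not given in the sources used here. Each group had 1 library, so nothing could be tested over samples and no p value is given. Genotype, tumor tissue and library cannot be told apart.

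The libraries held 85522287 UMIs over 100171 barcodes (WT) and 87575064 UMIs over 90147 barcodes (N-LKO), where a UMI (unique molecular identifier) stands for 1 captured transcript. The barcode sequences of the libraries overlapped in 2499 cases. After filtering, 18431 and 19855 cells remained, with a median of 1400 and 1455 UMIs per cell. Cells were clustered without the members and without the mitochondrially encoded (mt-) genes, so neither shaped the classes, and classes are called "X-like" from their markers. The 5 classes compared in full were hepatocyte-like (9928 WT and 2104 N-LKO cells), endothelial-like (1880 and 2400), macrophage-like (2433 and 5342), stellate-like (910 and 653) and T/NK-like (1180 and 1937). Different clusters held most hepatocyte-like cells in each library: cluster 0 held 8308 of the WT cells and cluster 5 held 1984 of the N-LKO cells. In hepatocyte-like cells Nus1 stood at 73.0 CPM (UMIs of a gene scaled to a common library total) in WT and 39.2 in N-LKO. It was at 89.2 and 93.3 in endothelial-like, 78.0 and 77.6 in macrophage-like, 82.0 and 79.4 in stellate-like and 73.8 and 55.2 in T/NK-like cells. The sequenced tags come from the 3′ end, outside the deleted exon, so these levels do not read the deletion itself. Whether they follow from it was not tested.

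The starts of the member genes carry sequence motifs that are known to bind regulators of mitochondrial genes. Promoter windows from 250 bases before to 50 bases after the gene start were found in the RefSeq table (build GRCm38.p6) for 69 of the 85 members. The motifs searched on both strands, with overlapping matches counted, were GCGCANGCG for NRF1, CCGGAAG for ETS factors such as GABP, ATGGCGG for YY1 and AAGGTCA for the estrogen-related receptors (ERR). NRF1 letters were present in 27.5% of the member promoters and in 6.47% of all 27025 promoters in the table. For the ETS letters the shares were 23.2% and 9.12%, for YY1 13.04% and 4.19%, and for ERR 11.6% and 4.66%. At least 1 of the 4 motifs was in 53.6% of the member windows and 21.3% of all windows, while the median GC content was 57.3% against 52.7%. A match is a description of letters and not a binding site. The 5 windows below belong to members at the ends of the comparison, with matches in capitals. They are Sdha at chr13:74350191-74350490 (minus strand), the only member lower past 1.5-fold in all 5 classes, Ndufb11 at chrX:20617570-20617869 (minus), the highest in hepatocyte-like cells, Ndufs4 at chr13:114388045-114388344 (minus), the highest in stellate-like cells, Uqcr10 at chr11:4704295-4704594 (minus), the lowest in stellate-like and T/NK-like cells, and Ndufb2 at chr6:39592315-39592614 (plus), among the 3 lowest in endothelial-like, macrophage-like and T/NK-like cells.
Sdha: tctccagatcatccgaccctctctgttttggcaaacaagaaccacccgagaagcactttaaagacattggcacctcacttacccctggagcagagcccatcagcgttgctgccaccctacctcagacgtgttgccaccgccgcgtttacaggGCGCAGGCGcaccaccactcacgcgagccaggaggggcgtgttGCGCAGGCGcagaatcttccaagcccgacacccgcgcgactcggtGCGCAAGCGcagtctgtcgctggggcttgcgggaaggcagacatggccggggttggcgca
Ndufb11: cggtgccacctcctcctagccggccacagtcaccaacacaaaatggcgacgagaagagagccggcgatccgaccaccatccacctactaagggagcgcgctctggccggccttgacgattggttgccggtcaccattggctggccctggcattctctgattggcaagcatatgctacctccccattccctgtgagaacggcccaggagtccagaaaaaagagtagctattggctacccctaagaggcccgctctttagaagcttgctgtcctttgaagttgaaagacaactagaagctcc
Ndufs4: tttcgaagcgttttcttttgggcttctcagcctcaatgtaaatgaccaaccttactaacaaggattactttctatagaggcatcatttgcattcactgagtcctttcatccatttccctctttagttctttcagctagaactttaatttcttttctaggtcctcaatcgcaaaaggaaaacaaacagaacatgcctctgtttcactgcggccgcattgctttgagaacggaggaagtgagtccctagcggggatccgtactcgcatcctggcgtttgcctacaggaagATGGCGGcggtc
Uqcr10: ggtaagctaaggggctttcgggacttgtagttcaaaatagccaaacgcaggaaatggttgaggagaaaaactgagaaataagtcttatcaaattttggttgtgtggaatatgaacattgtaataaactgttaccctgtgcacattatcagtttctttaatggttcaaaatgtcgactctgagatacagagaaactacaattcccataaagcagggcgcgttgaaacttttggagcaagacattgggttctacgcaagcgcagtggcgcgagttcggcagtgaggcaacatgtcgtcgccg
Ndufb2: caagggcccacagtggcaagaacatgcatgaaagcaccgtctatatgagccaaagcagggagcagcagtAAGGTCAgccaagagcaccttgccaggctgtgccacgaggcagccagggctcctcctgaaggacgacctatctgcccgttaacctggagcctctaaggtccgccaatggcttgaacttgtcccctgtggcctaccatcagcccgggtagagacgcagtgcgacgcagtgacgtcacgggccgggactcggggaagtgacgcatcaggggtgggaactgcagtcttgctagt
Sdha showed 3 NRF1 matches, Ndufs4 1 YY1 match and Ndufb2 1 ERR match, and neither Ndufb11 nor Uqcr10 showed any of the 4 motifs in this window. Members with and without a motif were then set side by side. The median log2 ratio of N-LKO over WT was 0.26 for the 37 tested members with a motif and 0.30 for the 28 without in hepatocyte-like cells, and -1.28 and -1.36 in endothelial-like cells. The pairs of medians were -0.77 and -0.80 in macrophage-like, -0.94 and -0.88 in stellate-like and -1.14 and -1.13 in T/NK-like cells.

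In WT cells, the members as counted made up 1.72% to 2.66% of all UMIs, depending on the class. Summed over the 85 genes, they took 2.66% (95% interval 2.64 to 2.69) of UMIs in T/NK-like, 2.61% (2.56 to 2.67) in plasmacytoid dendritic-like, 2.60% (2.55 to 2.66) in cholangiocyte-like, 2.56% (2.55 to 2.56) in hepatocyte-like and 2.54% (2.498 to 2.59) in B-like cells. These 5 classes stood close together, and each neighboring pair in this order had overlapping intervals. Endothelial-like (2.40%), dendritic-like (2.38%), macrophage-like (2.28%) and plasma-like cells (2.22%) came next, and stellate-like cells were lowest at 1.72% (1.70 to 1.74). All intervals given here are exact and cover counting error only. These shares include free RNA. With an estimate of it subtracted, WT shares were 1.04% in endothelial-like, 1.45% in T/NK-like and 1.55% in cholangiocyte-like cells. In hepatocyte-like cells the members estimated from free RNA, 3.15% of UMIs, exceeded the 2.56% counted. The 0.123% left there is therefore not a level.

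In N-LKO cells, the shares were lower in every described class except hepatocyte-like cells. There the members took 3.00% of UMIs (2.99 to 3.02), against 2.56% in WT, 1.18-fold higher. The endothelial-like share was 0.945% (0.935 to 0.955), against 2.40% in WT, 2.54-fold lower. In macrophage-like cells it was 1.26% (1.25 to 1.27) against 2.28%, in stellate-like cells 0.905% (0.888 to 0.922) against 1.72%, and in T/NK-like cells 1.15% (1.14 to 1.16) against 2.66%. The smaller classes moved the same way, with 1.04% in B-like, 1.29% in cholangiocyte-like, 1.36% in dendritic-like, 1.12% in plasma-like and 1.16% in plasmacytoid dendritic-like N-LKO cells. No interval of a non-hepatocyte class in N-LKO reached that of the same class in WT. Fewer member transcripts per cell and more of other transcripts cannot be told apart in a share.

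**Figure D1:**
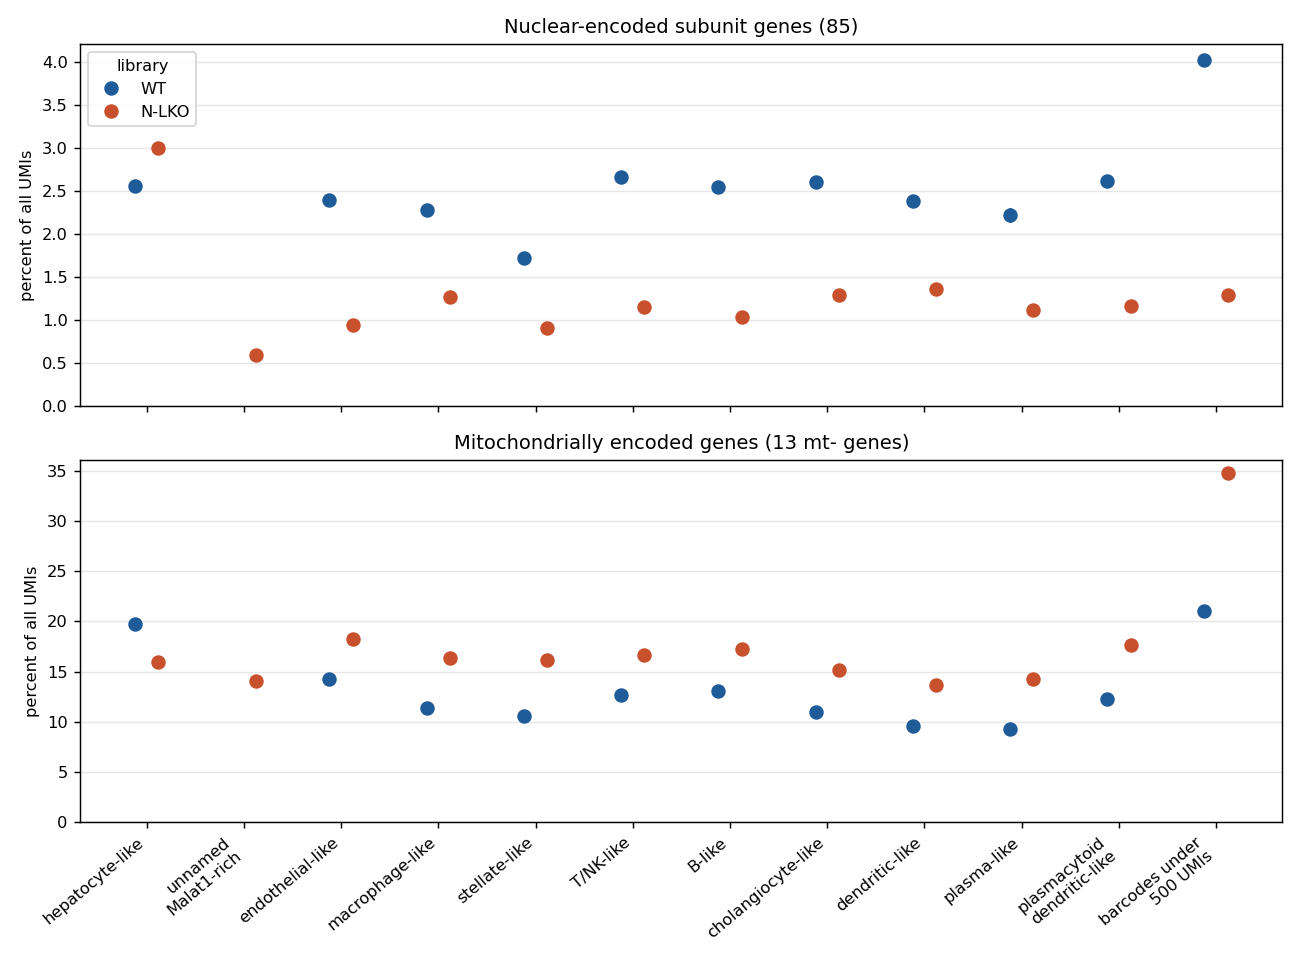
Share of all UMIs (percent) from the 85 subunit genes (top) and from the 13 mt- genes (bottom) in each cell class and in barcodes under 500 UMIs, with 1 point per library. The subunit share was lower in N-LKO in every class but hepatocyte-like cells, whereas the mt- share was higher in N-LKO in every named class but hepatocyte-like cells.

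As counted, the summed mt- genes differed the opposite way in the same cells. In hepatocyte-like cells their share was 19.7% (WT) and 15.9% (N-LKO), and all 13 mt- genes were lower there, with mt-Nd6, a complex I subunit gene, at -1.48 on the log2 scale. In endothelial-like cells the mt- share was 14.2% in WT and 18.2% in N-LKO, in macrophage-like 11.3% and 16.3%, in stellate-like 10.6% and 16.1%, and in T/NK-like 12.7% and 16.6%. As counted, the sums of the nuclear-encoded and of the mitochondrially encoded genes thus differed in sign in all 5 classes, which did not hold after free RNA was subtracted, as given with that estimate. Per 100 mt- UMIs, hepatocyte-like cells had 12.97 member UMIs (WT) and 18.8 (N-LKO), against 16.8 and 5.19 in endothelial-like, 20.1 and 7.72 in macrophage-like, 16.3 and 5.60 in stellate-like and 20.95 and 6.91 in T/NK-like cells. The log2 ratio of members to mt- genes was 0.54 in hepatocyte-like cells, but -0.10 with an mt- limit of 10% and -0.32 with a minimum of 500 UMIs. After free RNA was subtracted it was 0.25 in endothelial-like and 0.79 in T/NK-like cells, against -1.70 and -1.60 before, and -0.082 in macrophage-like and -0.057 in stellate-like cells, against -1.38 and -1.54.

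The 2 libraries also differed in these genes among barcodes with few UMIs. No barcode in the count tables had fewer than 326 UMIs in WT or 377 in N-LKO, so emptier droplets could not be seen. Barcodes under 500 UMIs, taken here as the profile of free RNA, may also hold small or damaged cells, which was not tested. They numbered 18526 in WT and 13674 in N-LKO. In them the members took 4.02% of UMIs in WT and 1.29% in N-LKO, and the mt- genes 21.1% and 34.8%. Transcripts of hepatocyte markers, 10 genes that other cell types should lack, took 1.61% of the UMIs of endothelial-like cells in WT and 1.04% in N-LKO, and 6 of the 10 were lower in N-LKO. In macrophage-like cells 8 of the 10 were lower (1.28% and 0.792%), in stellate-like 6 (0.874% and 0.830%) and in T/NK-like 7 (1.64% and 0.998%), and none was at 0. From genes foreign to each class, free RNA was estimated at 24.4% to 46.8% of the UMIs of the 4 non-hepatocyte main classes in WT and at 36.1% to 45.2% in N-LKO. After this estimate was subtracted, the members took 1.04% of UMIs in WT and 0.656% in N-LKO endothelial-like cells, 1.45% and 1.03% in T/NK-like, 0.980% and 0.668% in stellate-like and 1.28% and 1.24% in macrophage-like cells. The log2 ratios of the member sum were then -0.66, -0.50, -0.55 and -0.046, against -1.34, -1.21, -0.93 and -0.85 before. The difference was thus smaller in all 4 classes after subtraction, and smallest in macrophage-like cells. The mt- share after subtraction was 8.54% in WT and 4.53% in N-LKO endothelial-like cells, 5.32% and 2.18% in T/NK-like, 7.18% and 5.09% in stellate-like and 5.75% and 5.89% in macrophage-like cells. Members and mt- genes were then both lower in N-LKO in the first 3 of these classes.

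Cells with a like mt- share still differed as counted. Among endothelial-like cells with 10% to 20% of UMIs from mt- genes, the members took 2.83% of the remaining UMIs in WT and 1.15% in N-LKO. In the same bin the values were 2.58% and 1.499% in macrophage-like, 2.002% and 1.10% in stellate-like and 3.17% and 1.39% in T/NK-like cells. The member share was lower in N-LKO in every one of the 4 bins of mt- share in these 4 classes. In hepatocyte-like cells the corresponding shares were 3.43% and 3.56%, and they were higher in N-LKO in 3 of the 4 bins, the lowest of which held 11 N-LKO cells.

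Gene by gene, 77 members passed the filter of a mean of 10 CPM over the libraries in all 5 classes, and 8 passed it in none. A gene was counted as lower or higher when its CPM differed by at least 1.5-fold between the libraries. Free RNA was not subtracted in the values by gene and by complex. With it subtracted, the member sums were -0.66 in endothelial-like, -0.046 in macrophage-like, -0.55 in stellate-like and -0.50 in T/NK-like cells. The macrophage-like counts below thus describe a difference that was nearly absent from the sum after subtraction. In endothelial-like cells 75 of the 77 members were lower (97.4%), against 17.3% of all genes tested, and 0 were higher, against 18.4%. The median log2 ratio of the members was -1.29, against 0.06 for all genes tested. In macrophage-like cells 58 were lower (75.3%), against 13.2%, and 0 higher, against 7.21%, with a median of -0.77 against -0.05. In stellate-like cells 61 were lower (79.2%), against 20.8%, and 0 higher, against 15.2%, with a median of -0.90 against -0.09. In T/NK-like cells 75 were lower (97.4%), against 17%, and 0 higher, against 20.5%, with a median of -1.14 against 0.05. Across these 4 classes, 48 of the 77 members were lower in every one, against 5.59% of the 7616 genes tested in all 4. They were 15 of complex I, all 4 of complex II, 6 of complex III, 8 of complex IV and 15 of complex V.

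**Figure D2:**
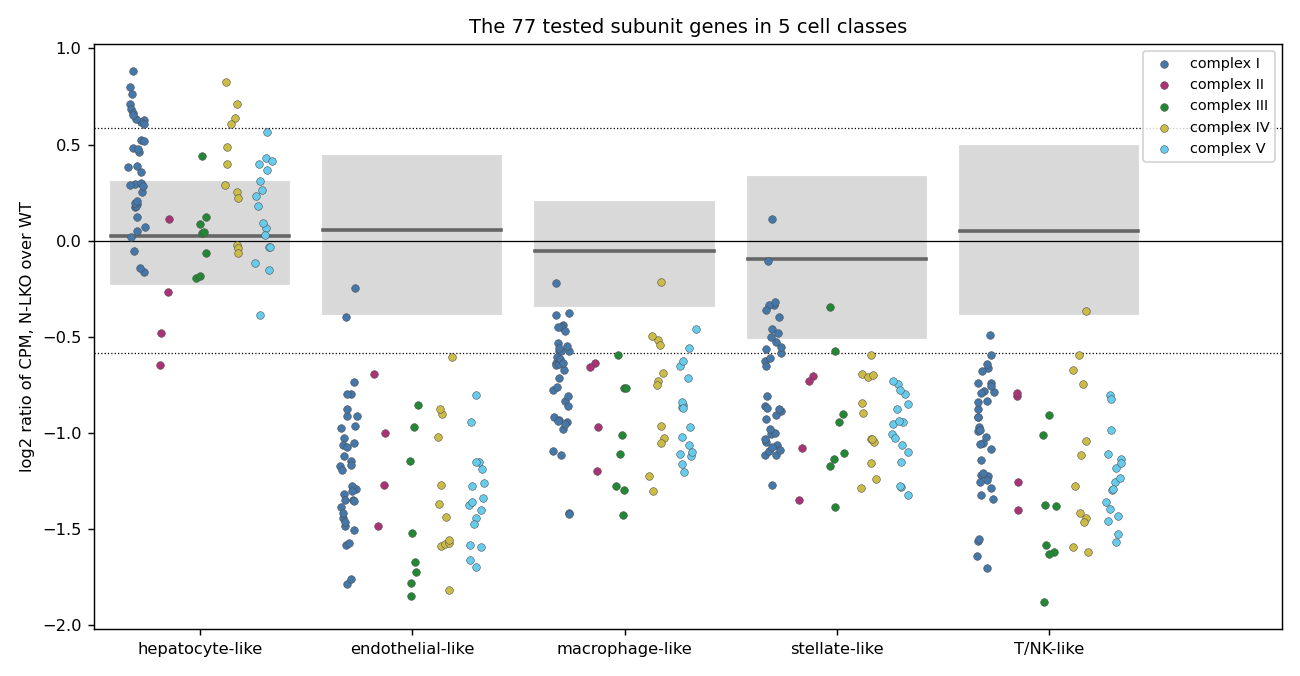
Log2 ratio of CPM, N-LKO over WT, of each of the 77 tested subunit genes (points, colored by complex) in 5 cell classes. Gray boxes and lines give the middle 50% and the median of all genes tested in a class, and dotted lines mark 1.5-fold. All points but 1 lie below 0 outside hepatocyte-like cells. Free RNA was not subtracted.

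Before any subtraction of free RNA, every complex was lower in the 4 non-hepatocyte classes. Complex III, which passes electrons from ubiquinol to cytochrome c, was lowest in each. Its summed level was -1.56 on the log2 scale (-1.61 to -1.51) in endothelial-like, -1.12 (-1.16 to -1.08) in macrophage-like, -1.05 (-1.14 to -0.96) in stellate-like and -1.45 (-1.51 to -1.39) in T/NK-like cells. The other 4 complexes ranged from -1.36 to -1.03 in endothelial-like, -0.91 to -0.76 in macrophage-like, -1.01 to -0.78 in stellate-like and -1.26 to -0.99 in T/NK-like cells. In stellate-like cells the interval of complex III overlapped those of complexes II (-1.08 to -0.67), IV (-1.01 to -0.89) and V (-1.07 to -0.94), so it did not stand apart there.

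The low end was read from the 3 lowest members of each class among those with a mean of at least 50 CPM. Uqcrq, a complex III subunit and the member with the most UMIs, was at 1009 CPM (WT) and 281 CPM (N-LKO) in endothelial-like cells (log2 ratio -1.85, interval -1.95 to -1.74) and at 855 and 319 in macrophage-like cells (-1.42). Uqcr10, also of complex III, went from 551 to 149.5 in T/NK-like cells (-1.88, -2.05 to -1.71) and from 316 to 121 in stellate-like cells (-1.38). Ndufb2, of the membrane arm of complex I, went from 148 to 42.8 in endothelial-like, from 138 to 51.4 in macrophage-like and from 157 to 50.2 in T/NK-like cells. Cox7b, of complex IV, went from 587 to 166.5 in endothelial-like cells (-1.82), and Ndufa5, of complex I, from 181 to 67.9 in macrophage-like cells (-1.41). In barcodes under 500 UMIs Cox7b was at 1198 CPM in WT and 273 in N-LKO. The values of single members in this paragraph include free RNA, so they are not levels of the cells alone. The remaining members of this end were Atp5e (529 to 211, -1.32) and Cox6c (669.95 to 274, -1.29) in stellate-like cells and Ndufc1 (361 to 111) in T/NK-like cells. Sdhd, under the limit at a mean of 37.1 CPM, had a ratio of -1.35 in stellate-like cells.

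At the other end stood Ndufs4, an accessory subunit of complex I needed for its assembly. Its level was 127 CPM in WT and 96.7 in N-LKO endothelial-like cells (-0.40), 101 and 86.6 in macrophage-like (-0.22) and 145 and 103 in T/NK-like cells (-0.49). In stellate-like cells it was 102 and 109.6 (0.11, -0.23 to 0.45), the single value above 0 among the members tested in these 4 classes. Ndufs4 was among the 3 highest members in all 4 of them. Ndufs1, the largest complex I subunit and a carrier of iron-sulfur clusters, was the highest in endothelial-like cells at 63.2 and 53.4 CPM, an interval that includes no change (-0.56 to 0.08). Cox4i1, a complex IV subunit, differed little in macrophage-like cells (861 and 743, -0.21), as did Cox7a2l in T/NK-like cells (163 and 127, -0.37). Ndufc2 in macrophage-like cells (-0.38) and Ndufb6 (-0.32) and Ndufs3 (-0.11) in stellate-like cells were also at the high end, and the intervals of the last 2 included 0. So were Cox7a2l in endothelial-like cells (172 and 113, -0.60) and Cox4i1 in T/NK-like cells (843 and 559, -0.59), both of which passed 1.5-fold.

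Core and cofactor-binding members, and Cox5a, were below 0 in all 4 classes as counted, with free RNA included. Ndufv1, which binds the flavin of complex I, was at -1.46 in endothelial-like, -0.76 in macrophage-like, -0.87 in stellate-like and -0.64 in T/NK-like cells. Sdhb, the iron-sulfur subunit of complex II, ranged from -1.27 to -0.64 over these classes. Uqcrfs1, the Rieske protein of complex III, ranged from -1.72 to -1.10, and Uqcrc1, a core protein of the same complex, from -1.38 to -0.58. Cox5a, of complex IV, ranged from -1.02 to -0.52. Atp5a1 and Atp5b, the alpha and beta subunits of the ATP synthase head, ranged from -1.34 to -1.005 and from -1.25 to -0.95.

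In hepatocyte-like cells, most members had ratios above 0 and few passed 1.5-fold. Of the 77 tested members 60 were above 0 (77.9%, against 52.7% of all genes tested), 15 were higher past 1.5-fold (19.5%, against 11.3% of all genes tested) and 1 was lower (1.299%, against 7.86%). The median was 0.26, against 0.03 for all genes tested. The member sum, 0.23 on the log2 scale, was -0.38 with a minimum of 500 UMIs. By complex, the summed log2 ratio was 0.35 (0.33 to 0.37) for complex I, 0.35 (0.33 to 0.36) for complex IV, 0.12 (0.10 to 0.14) for complex V and 0.09 (0.07 to 0.12) for complex III, but -0.38 (-0.45 to -0.32) for complex II. There were 59 members above 0 in hepatocyte-like cells and below 0 in all 4 of the other classes, a pattern that 18.1% of the 6786 genes tested in all 5 classes showed.

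The higher members came from complexes I and IV alone. Ndufb11, of the membrane arm of complex I, was at 179.6 CPM in WT and 332 in N-LKO (0.89, 0.80 to 0.97). Cox4i1 was at 705 and 1249.9 (0.83, 0.78 to 0.87), and Ndufs7, which carries the last iron-sulfur cluster before the quinone, at 68.2 and 119 (0.80, 0.65 to 0.95). These were the 3 highest. The other members past 1.5-fold were Cox5a (381 to 625), Cox5b (263 to 409) and Ndufa4 (1034 to 1576) of complex IV, and Ndufa8, Ndufa11, Ndufa12, Ndufb5, Ndufb6, Ndufb8, Ndufb9, Ndufc2 and Ndufs3 of complex I, whose log2 ratios lay between 0.61 and 0.76.

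Sdha, the flavoprotein of complex II that oxidizes succinate, was the 1 member lower in hepatocyte-like cells, at 320.2 CPM in WT and 205 in N-LKO (-0.64, -0.75 to -0.54). It was also the only member lower past 1.5-fold in all 5 classes, with -1.0005 in endothelial-like, -0.97 in macrophage-like, -0.70 in stellate-like and -0.81 in T/NK-like cells. Sdhd, a membrane anchor of complex II, was at 76.3 and 54.7 (-0.48, -0.68 to -0.28), while Sdhb was at 119 and 129 (0.11, -0.02 to 0.25). The third lowest was Atp5a1 at 580.3 and 444 (-0.39, -0.46 to -0.32), and its partner Atp5b was at 515 and 475 (-0.12). Ndufs1, Uqcrc1 and Uqcrfs1 were at -0.14, -0.19 and -0.19, and Ndufv1 at 0.30. The interval of Ndufs1 included 0.

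The hepatocyte-like value depended on which clusters were compared. In cluster 0 the members took 2.38% of UMIs in the 8308 WT cells and 2.71% in 89 N-LKO cells. In cluster 5 they took 3.69% in 117 WT cells and 3.02% in 1984 N-LKO cells, and in cluster 9 they took 4.67% in 1182 WT cells and 3.72% in 21 N-LKO cells. N-LKO was therefore higher within cluster 0 and lower within clusters 5 and 9. Cluster 17 (321 WT cells) was low in members at 1.35% and rich in the nuclear transcript Malat1, at 35589 CPM.

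A further cluster bears on the same comparison. Cluster 6 held 2019 N-LKO cells and 1 WT cell and stayed unnamed, with hepatocyte markers as its best but low match (3 of 10 raised). Its members took 0.591% of UMIs (0.583 to 0.599), lower than in any named class described here, beside 14.1% from mt- genes and 19974 CPM of Malat1. When cluster 6 was counted as hepatocyte-like, a choice made after seeing the data, the member sum went from 0.23 to -0.43 on the log2 scale. Then 19 members were lower past 1.5-fold (24.7%, against 7.12% of all genes tested) and 0 higher (against 37.1%). Malat1 stood at 9138 CPM in WT and 4590 in N-LKO in the hepatocyte-like class without cluster 6, and at 9394 and 12730 in endothelial-like, 10257 and 11720 in macrophage-like, 15136 and 16674 in stellate-like and 10298 and 13398 in T/NK-like cells. In these 5 classes it was higher where the members were lower, but in cholangiocyte-like (23827 and 20595), dendritic-like (17374 and 15452) and plasma-like cells (17942 and 17711) both were lower in N-LKO. Its part in the result was not tested.

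**Figure D3:**
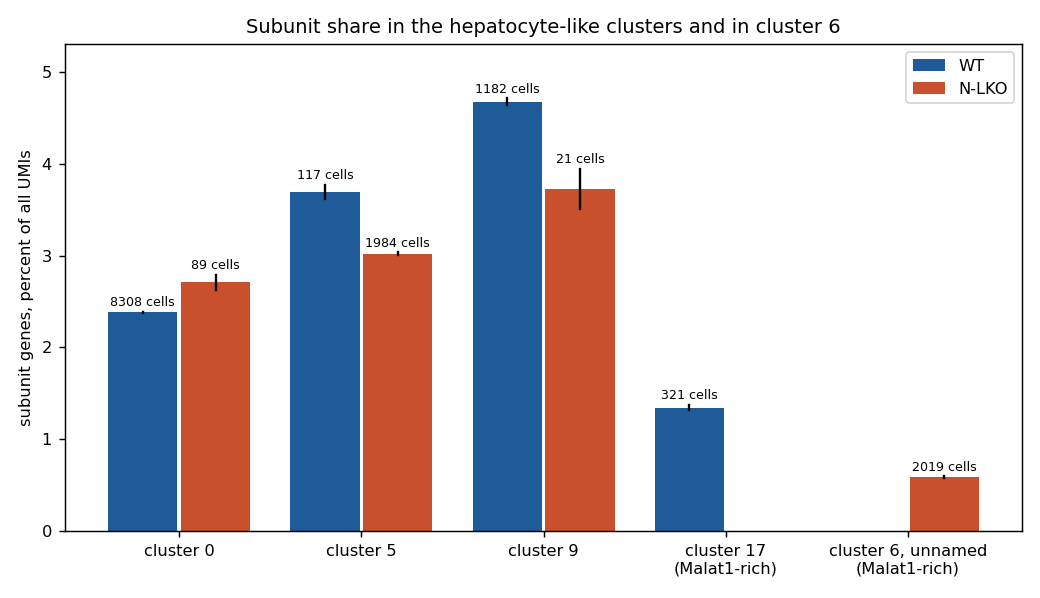
Share of all UMIs (percent) from the 85 subunit genes in the 4 hepatocyte-like clusters and in unnamed cluster 6, by library, with exact 95% intervals and cell numbers over the bars. Bars are drawn where a library had at least 20 cells in the cluster. The share runs from 0.591% in cluster 6 to 4.67% in cluster 9.

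The member share was also described cell by cell, from the same UMIs as the sums. Cells of 1 library are not replicates, so the quartiles show spread within a library only. The median member share per cell was 2.36% in WT endothelial-like cells, with quartiles of 1.97% and 2.84%, and 0.908% in N-LKO, with quartiles of 0.670% and 1.21%. In T/NK-like cells it was 2.66% (2.17% to 3.18%) and 1.09% (0.803% to 1.41%), in macrophage-like 2.25% (1.84% to 2.73%) and 1.21% (0.952% to 1.51%), and in stellate-like 1.70% (1.40% to 2.13%) and 0.846% (0.598% to 1.11%). The upper quartile in N-LKO lay below the lower quartile in WT in all 4 classes. These shares per cell include free RNA, whose part in the separation was not tested. In hepatocyte-like cells the quartiles overlapped, at 1.86% to 3.09% in WT and 2.43% to 3.62% in N-LKO.

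The members are short genes, and the change between the libraries went with gene length. The median distance from the start to the end of the gene in GENCODE M21 was 7.46 kb for the tested members and 29.0 kb to 30.8 kb for all genes tested. When genes were divided into 5 equal groups by this length, the median log2 ratio of genes other than members in the shortest group was -0.43 in endothelial-like and T/NK-like, -0.26 in macrophage-like and -0.50 in stellate-like cells, whereas in the longest group it was between 0.20 and 0.50. Members in the shortest group had medians of -1.37, -1.23, -0.89 and -0.95 in endothelial-like, T/NK-like, macrophage-like and stellate-like cells. They were thus lower than other short genes in each of these classes. In hepatocyte-like cells the order by length was turned, and short members and other short genes had the same median of 0.26. Ndufs4, which spans 100.5 kb, was the only tested member in the longest group. Whether the authors counted reads in introns was not given in the sources used here, and the part of gene length in the result was not tested.

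**Figure D4:**
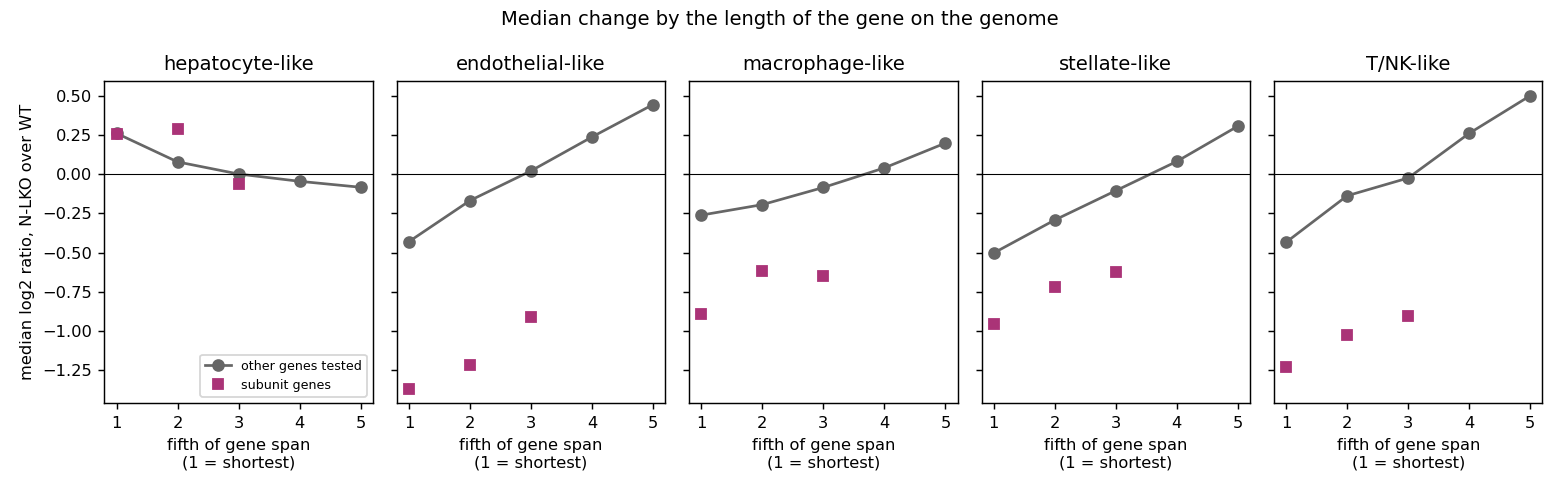
Median log2 ratio, N-LKO over WT, by group of gene span (5 equal groups, 1 is shortest) for subunit genes (squares) and other genes tested (circles) in 5 cell classes. Outside hepatocyte-like cells the subunit medians lie below those of other genes of like span. Group 4 holds no tested member, and the 1 member of group 5 is not drawn.

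Other gene lists of the same organelle were described as counted. Free RNA was not subtracted from the list values in this paragraph and the next, and its part in them was not tested. For the members themselves, the macrophage-like sum was -0.046 after subtraction. Of the 77 tested genes of the mitochondrial ribosome, which translates the mt- genes, 61 were lower in endothelial-like cells, with a median of -0.92. That is 79.2%, against 17.3% of all genes tested. The median was -0.51 in macrophage-like, -0.59 in stellate-like and -0.83 in T/NK-like cells, and 0.38 in hepatocyte-like cells. Enzymes of the tricarboxylic acid cycle, which feed NADH and succinate to the chain, had medians of -0.60, -0.62, -0.41 and -0.69 in the same order and -0.18 in hepatocyte-like cells. Assembly factors of the complexes were at -0.63, -0.50, -0.36 and -0.40, and at 0.09 in hepatocyte-like cells. In the 4 non-hepatocyte classes 20, 17, 14 and 13 of 35 to 37 tested genes were lower. These were 57.1%, 45.9%, 37.8% and 35.1%, against 17.3%, 13.2%, 20.8% and 17% of all genes tested. The protein import machinery was at -0.74, -0.37, -0.48 and -0.69, and at 0.43 in hepatocyte-like cells.

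Regulators of the program, such as Ppargc1a, Nrf1, Gabpa, Esrra and Tfam, had medians on both sides of 0. These were 0.08 in endothelial-like, 0.03 in macrophage-like, 0.32 in stellate-like, -0.16 in T/NK-like and -0.08 in hepatocyte-like cells, over 10 to 12 tested genes. Past 1.5-fold, 5 of 11 were higher in endothelial-like cells (45.5%, against 18.4% of all genes tested) and 2 lower (18.2%, against 17.3%). In stellate-like cells 5 of 12 were higher (41.7%, against 15.2%) and 2 lower (16.7%, against 20.8%). In macrophage-like, T/NK-like and hepatocyte-like cells 10%, 9.09% and 0% were higher, against 7.21%, 20.5% and 11.3%. Lists outside the mitochondrion were described in the same way. Cytosolic ribosomal proteins were at -0.58, -0.21, -0.66 and -0.49 in the 4 non-hepatocyte classes and at 0.38 in hepatocyte-like cells, and proteasome subunits at -0.65, -0.41, -0.48 and -0.52 and at 0.31. Glycolytic enzymes were at -0.42, -0.28, -0.24 and -0.33 and at 0.24. Subunits and carriers that the naming rule missed, such as Cyc1 and Cycs, were at -1.23, -0.92, -0.74 and -1.16 and at 0.34 in hepatocyte-like cells.

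Some complex IV subunits have tissue forms encoded by separate genes, and 1 of them was concentrated in a single cell class in both libraries. Cox6a2, known as the heart and muscle form of subunit 6A, supplied 65.8% (58.7 to 72.5) of the Cox6a1 and Cox6a2 UMIs in WT plasmacytoid dendritic-like cells, 127 of 193 UMIs. In N-LKO it supplied 63.1% (57.9 to 68.1), 224 of 355 UMIs, so the intervals overlapped. In every other class its share was at most 2.83% in either library, and in barcodes under 500 UMIs it was 0.297% and 1.23%. Cox6a2 was not among the genes used for clustering, yet it was among the 10 leading genes of that cluster.

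**Figure D5:**
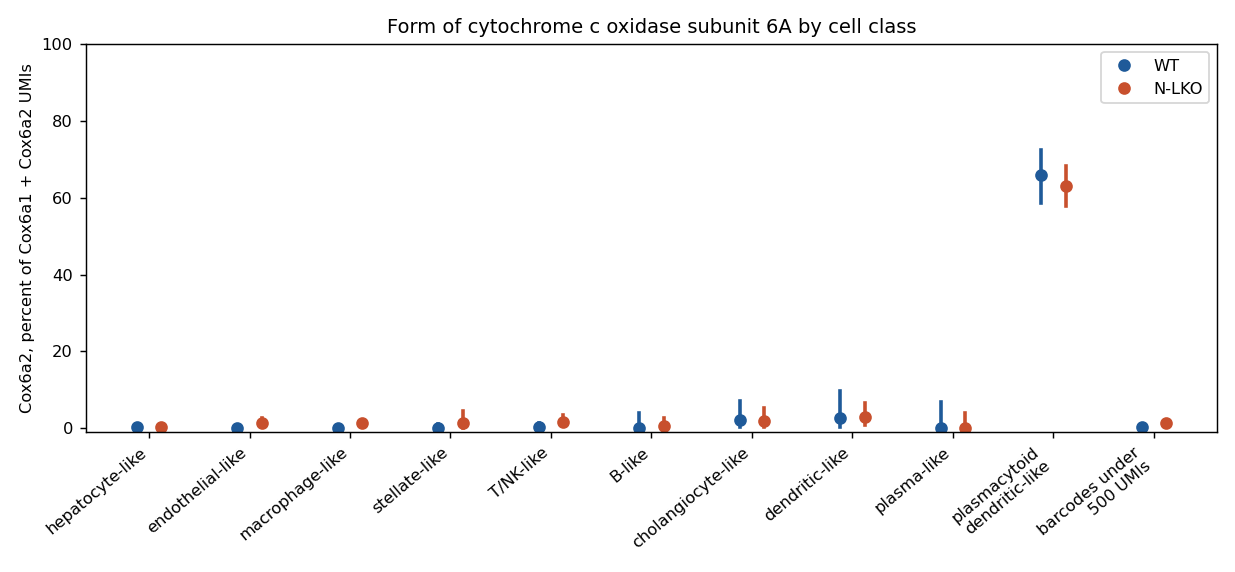
Cox6a2 as a percent of Cox6a1 and Cox6a2 UMIs in each cell class and in barcodes under 500 UMIs, by library, with exact 95% intervals. Plasmacytoid dendritic-like cells stand at 65.8% and 63.1%, and all other classes at or under 2.83%.

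The other tissue forms were rare. Cox4i2, a form linked to low oxygen, was at most 1.04% of the Cox4i1 and Cox4i2 UMIs, in N-LKO stellate-like cells (5 UMIs, and 4 in WT). Ndufa4l2, a relative of Ndufa4, was also most frequent in stellate-like cells, at 0.652% (0.240 to 1.41) in WT and 2.59% (1.19 to 4.87) in N-LKO. Those intervals overlapped and rest on 6 and 9 UMIs. Cox7a1 was 3.57% of the Cox7a1 and Cox7a2 UMIs in WT and 3.35% in N-LKO cholangiocyte-like cells, and 0.977% and 0.911% in hepatocyte-like cells. Cox6b2 stayed at or under 2.19% of its family, and Cox8b was seen in 4 WT and 1 N-LKO UMIs of hepatocyte-like cells. Cox7b2 and Cox8c had 0 UMIs in every class, which in WT hepatocyte-like cells, allows a share of up to 0.0264% of 11365 family UMIs and 0.0202% of 14846 family UMIs (3 UMIs).

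The c-ring of ATP synthase is encoded by Atp5g1, Atp5g2 and Atp5g3, whose mature proteins are the same, and the balance between them differed by class. Atp5g1 was the largest in hepatocyte-like cells, with 40.8% of the family in WT and 45.0% in N-LKO, while Atp5g2 held 21.4% and 24.1%. This was not particular to them. Among other classes, Atp5g1 was also the largest in plasma-like (40.4% and 39.9%) and cholangiocyte-like cells (36.3% and 36.4%) and in WT T/NK-like cells (37.2%). Atp5g2 went from 27.3% (25.6 to 29.1) to 37.6% (35.2 to 40.0) in endothelial-like, from 31.7% to 40.3% in macrophage-like and from 29.98% to 37.7% in T/NK-like cells. In stellate-like cells it was 34.2% and 37.1%, with overlapping intervals. In endothelial-like cells Atp5g2 was at -0.80 on the log2 scale, Atp5g1 at -1.58 and Atp5g3 at -1.40. In barcodes under 500 UMIs the Atp5g2 share was 22.8% and 28.0%. There Atp5g1 was at 774 CPM in WT and 182 in N-LKO, Atp5g2 at 422 and 160 and Atp5g3 at 657 and 230. Free RNA was not subtracted from the shares and ratios of this family in the classes, and its part in them was not tested.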

How the data were processed

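Droplet-based single-cell RNA sequencing with 3′ chemistry was done on 1 WT and 1 N-LKO library. The authors deposited, for each library, a gene by barcode matrix of raw UMI counts made with Cell Ranger 7.1.0 per the file headers; the submitters' processing notes name mm9, Cell Ranger and Seurat, and intron counting was not given in the sources used here. Barcodes with at least 1000 UMIs, 400 genes and at most 30% mt- UMIs were kept. Doublets scored over 0.25 by Scrublet (expected rate 0.1) were removed, 8.57% of WT and 10.6% of N-LKO barcodes. Cells were clustered from 2000 variable genes, without members and mt- genes, by 30 principal components, 20 neighbors and Leiden resolution 0.3 (Python 3.11.15, scanpy 1.11.5, leidenalg 0.10.2). Of 22 clusters, 19 were named from 14 marker lists, 2 were mixed and 1 stayed unnamed.

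UMIs were summed per class and library. Ratios of single genes had 0.5 UMI added, and genes with a mean of at least 10 CPM were tested against a 1.5-fold limit. Intervals are 95% and exact (Clopper-Pearson for shares, conditional binomial for ratios; scipy 1.17.1), and groups of gene span used GENCODE M21. The fold limit and ratio intervals were run on counts simulated for endothelial-like cells under the counting model the intervals assume. That simulation held no free RNA and no variation between libraries, so it does not bear on either. Free RNA was estimated from genes foreign to a class and the profile of barcodes under 500 UMIs. Named genes were the paralog families, 11 catalytic or cofactor-binding members, the 3 lowest and 3 highest members of each class among those with at least 50 CPM, and members lower in all 5 classes; Cox5b and the other members past 1.5-fold in hepatocyte-like cells were named after their values were seen. The values of 1 gene under this rule are not reported here. The members and lists were chosen with earlier results of these data known. Alternatives changed the filters, scaling, doublets, free RNA, clusters and fold.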

Additional observations from a re-analysis of the deposited data

Results flagged for a closer look

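The summed level of the subunit genes in hepatocyte-like cells was drawn out because its log2 ratio, 0.23, is above 0 while those of the other 4 main classes are below 0. The sign depended on the processing. The ratio was -0.38 with a minimum of 500 UMIs and -0.43 with unnamed cluster 6 counted as hepatocyte-like. Within clusters 5 and 9 the member share was lower in N-LKO, and within cluster 0 it was higher. The difference between the classes was not tested, since each group had 1 library.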

How the results depend on the processing

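Values are log2 ratios of N-LKO over WT for hepatocyte-like, endothelial-like, macrophage-like, stellate-like and T/NK-like cells in this order. The cause of the changes was not tested. Scaled to UMIs outside mt- genes, the member sums were 0.17, -1.27, -0.77, -0.84 and -1.14, and relative to the median of all tested genes 0.21, -1.40, -0.80, -0.84 and -1.26. With at least 1500 UMIs per cell the sums were 0.29, -1.38, -0.74, -0.84 and -1.09, and the ratios of members to mt- genes 0.59, -1.64, -1.22, -1.41 and -1.57. With at least 500 UMIs the hepatocyte-like values turned, to -0.38 for the sum and -0.32 for the ratio; the other ratios were -1.80, -1.42, -1.60 and -1.78, and the macrophage-like, stellate-like and T/NK-like sums -0.88, -0.96 and -1.28. With an mt- limit of 10% the sums were 0.13, -1.79, -0.75, -0.82 and -1.16 and the ratios -0.10 (turned), -1.77, -0.86, -0.88 and -1.26. With no mt- limit they were 0.15, -1.39, -0.91, -0.98 and -1.25, and 0.28, -1.95, -1.59, -1.69 and -1.76. After free RNA was subtracted the sums were 4.91, -0.66, -0.046, -0.55 and -0.50. The ratios were then 5.81, 0.25 (turned), -0.082, -0.057 and 0.79 (turned). The hepatocyte-like estimate of free RNA was 78.3% in WT and 34.4% in N-LKO. In WT it put more members in free RNA than were counted, 3.15% against 2.56% of UMIs. The values 4.91 and 5.81 therefore do not measure the members.

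With doublets kept, the hepatocyte-like sum and ratio were 0.22 and 0.51 and the macrophage-like ratio -1.36. Without Malat1-rich or Malat1-poor clusters the hepatocyte-like values were 0.33 and 0.70. Where each cell counted the same, the first 4 sums were 0.22, -1.30, -0.88 and -0.98, and the hepatocyte-like, macrophage-like, stellate-like and T/NK-like ratios 0.51, -1.44, -1.61 and -1.63. At resolution 1 the stellate-like values were -0.97 and -1.58 and the T/NK-like values -1.29 and -1.72. After seeing the data, 2 alternatives were added. With the unnamed cluster counted as hepatocyte-like, the values turned to -0.43 and -0.044, and without the 5 members with the most UMIs they were 0.21 and 0.52, with an endothelial-like sum of -1.32. At 2-fold, 0 of 77 members were lower and 0 higher in hepatocyte-like cells, against 2.65% and 3.60% of all genes tested. At the same limit 59, 21, 30 and 48 were lower in endothelial-like, macrophage-like, stellate-like and T/NK-like cells (76.6%, 27.3%, 39.0% and 62.3%), against 7.28%, 5.44%, 6.45% and 7.38% of all genes tested. With no filter on low counts, 3, 1, 4 and 1 members were higher in the 4 non-hepatocyte classes, all of them under the filter of 10 CPM. No paired analysis was possible because each group has 1 library.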
